A study of Homo sapiens with 16 samples.

Results

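The plasminogen activation system was examined through 5 genes, the plasminogen activators PLAU and PLAT, the urokinase receptor PLAUR, and the serine protease inhibitors SERPINE2 and SERPINB2. They were taken by name, and the expression of each was summed over its transcripts, giving 5 of 34451 genes, of which 19356 are protein-coding. The libraries come from the isogenic BJ model of malignant transformation, a human foreskin fibroblast line carried through 4 stages, where each stage is 1 cell line. The primary stage is the primary BJ cell line. The immortalized stage (BJ hTERT+) also carries the catalytic subunit of telomerase, the transformed stage (BJ hTERT+ SV40+) in addition the SV40 Large-T antigen, and the metastasizing stage (BJ hTERT+ SV40+ Ras-G12V) in addition mutated H-Ras. All lines were grown in the same serum-supplemented medium at 5% CO2 for 6 passages, either at atmospheric oxygen or at 3% oxygen, which the study calls moderate hypoxia. Each of the 8 groups has 2 libraries, named a and b, from duplicate plates of a line cultivated in parallel, so all p-values measure the spread between plates and not between donors or independently derived lines.

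Plasminogen circulates as an inactive precursor and is cut to plasmin, a protease that dissolves fibrin and degrades extracellular matrix. Urokinase (uPA) does this mainly at cell surfaces, where it is held by its receptor, whereas tissue plasminogen activator (tPA) is most active on fibrin. Serpins inactivate both enzymes by forming covalent complexes with them, and fibroblasts are a known source of activators, receptor and inhibitors.

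Expression is given as TPM, a share of all transcripts of a library that is scaled for transcript length, so levels of different genes can be set side by side. TPM keep no read counts, and the sequencing depth of each library is therefore unknown. All 9 fibroblast markers examined reached 1 TPM, with a library sum of 3831 to 20619 TPM, against 0.264 to 3.64 TPM for 5 epithelial markers. The endothelial markers found in the table summed to at most 10.4 TPM, nearly all of it TEK in primary cells. The leukocyte markers summed to 43.4 to 165 TPM, most of it CD68, with CD3E at 0 in every library, and the keratinocyte and melanocyte markers to 12 to 19.5 TPM with KRT1 at 0. DCN and LUM, which encode the matrix proteoglycans decorin and lumican, lay at 375 to 4576 TPM in primary and immortalized libraries and at 2.23 to 69.7 TPM in the later stages, and in these bulk samples a smaller number of cells of a type cannot be told apart from less RNA per cell. TERT was at most 0.543 TPM in primary libraries and at least 31.6 TPM in all others. HRAS did not distinguish the libraries labelled metastasizing at atmospheric oxygen (94.6 and 78.1 TPM) from the transformed ones (120 and 99 TPM), and TPM do not separate mutated from endogenous HRAS. The study itself called variants in the RNA-seq reads and reported that the stage-specific mutations of the model were found. In the metastasizing group at 3% oxygen HRAS was 143 TPM in replicate a and 772 TPM in replicate b. These libraries stood apart as a pair, since 11% of the genes of at least 1 TPM in that group (1301 of 11843) differed more than 2-fold between them, against 1.83% to 4.08% in the other groups.

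All 5 genes were expressed in all 16 libraries, but over very different ranges. SERPINE2 was the highest of them in 5 of the 8 groups by group mean, while SERPINB2 covered the widest range, with its highest group mean 32.4 times its lowest. That ratio was 10.1 for PLAU, 9.17 for PLAT, 6.16 for SERPINE2 and 2.92 for PLAUR. The lowest single value was 5.14 TPM, for SERPINB2 in a transformed library at atmospheric oxygen.

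**Figure D1:**
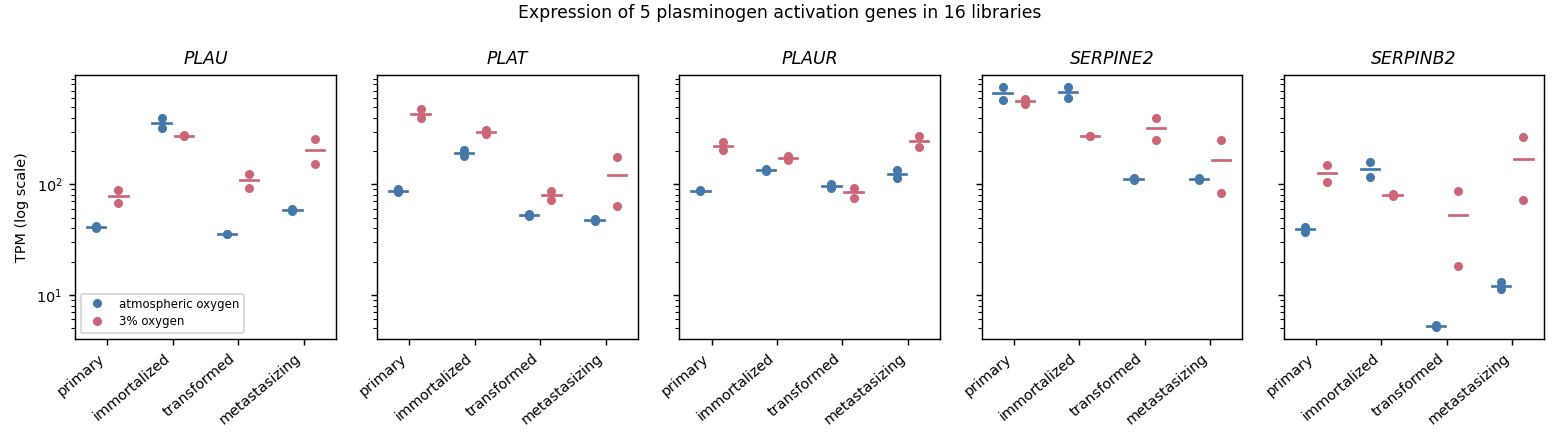
TPM on a log scale of the 5 genes in each library (points) and the group means (bars), by stage on the x axis, at atmospheric (blue) and 3% oxygen (red), n = 2 per group. The 2 SERPINB2 libraries of metastasizing cells at 3% oxygen lie far apart, at 269 and 71.6 TPM, while the 2 at atmospheric oxygen lie at 11.3 and 13 TPM.

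Between oxygen levels, PLAUR and PLAT rose in primary cells at 3% oxygen, and PLAU and SERPINB2 rose in both transformed cells and the libraries labelled metastasizing. No member was called lower in any stage. Calls required a limma p adjusted by Benjamini-Hochberg of less than 0.01, over all protein-coding genes tested, and a log2 fold change whose size exceeded 1 on the log2(TPM + 0.5) scale. In primary cells 2 of the 5 genes were called higher, where 2.78% of the 12184 genes tested were higher and 2.52% lower, and the median log2 fold change was 1.33 over the members and 0.08 over all genes tested. In transformed cells 2 were called higher, against 4.9% of 12242 genes (2.58% lower), with medians of 1.51 and 0.01. In the metastasizing stage 2 were called higher, against 3.06% of 12288 genes (4.6% lower), with medians of 1.16 and -0.13. In immortalized cells none was called by limma, against 4.91% of 12049 genes in either direction, although PLAUR and SERPINE2 had an unadjusted p of 0.0281 and 0.00536, and the medians were -0.38 and 0.11. The number of genes called higher and lower depended on scaling in 3 stages. It was 339 and 307 in primary cells (254 and 395 after median-ratio rescaling), 257 and 335 in immortalized cells (168 and 469), and 376 and 565 in metastasizing cells (455 and 447), and rescaling moved the median of all genes most in immortalized cells, from 0.11 to -0.03. No oxygen difference of a member changed its direction with either rescaling.

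**Figure D2:**
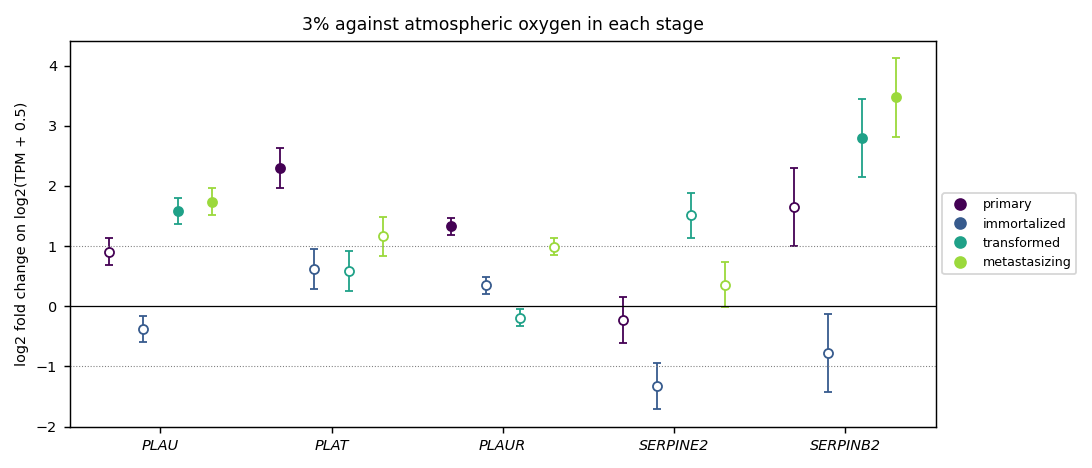
Log2 fold change at 3% against atmospheric oxygen on the log2(TPM + 0.5) scale for each gene, by stage (colour), with standard errors from limma. Filled points passed the threshold and dotted lines mark a log2 fold change of 1 in either direction. PLAUR in the metastasizing stage, at 0.99, lies just inside the line, and SERPINE2 spans from -1.33 in immortalized to 1.51 in transformed cells without passing in either.

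PLAU encodes urokinase and lies on chromosome 10 of GRCh37 (chr10:75668935-75677254, plus strand, ENSG00000122861). Transcript PLAU-201 held 94.7% to 99.7% of its TPM. The antisense gene C10orf55 overlaps it and reached at most 1.02 TPM. At atmospheric oxygen PLAU was 42.4 and 40.6 TPM in primary cells and 396 and 325 TPM after immortalization. It was 35.4 and 35.8 TPM in transformed cells and 60.2 and 57.9 TPM in the metastasizing stage. The immortalized stage thus stood above every other group, and no neighbouring groups in the order of the 8 means overlapped. At 3% oxygen the values were 89.7 and 68.3 TPM in primary, 280 and 271 in immortalized, 93.4 and 124 in transformed, and 153 and 258 in metastasizing cells. Both hypoxic libraries exceeded both atmospheric ones in every stage but the immortalized one, where both lay below.

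The oxygen difference of PLAU was a log2 fold change of 1.58 ± 0.22 (SE) in transformed cells (adjusted p = 0.000443, limma) and 1.74 ± 0.22 in the metastasizing stage (adjusted p = 0.000306). The latter was not called when only the 2 groups compared were fitted (adjusted p = 0.029, the highest over its alternatives, with a lowest of 0.00014), and was 2.12 without replicate a and 1.36 without replicate b at 3% oxygen. In primary cells it was 0.91 (adjusted p = 0.0123) and in immortalized cells -0.38 (adjusted p = 0.225), neither of which passed. Between stages PLAU rose on immortalization by 3.09 ± 0.22 at atmospheric and 1.81 ± 0.22 at 3% oxygen, and on transformation it fell by 3.31 and by 1.35 at these oxygen levels, all 4 of which passed. From the transformed to the metastasizing stage the differences were 0.72 (adjusted p = 0.0414) and 0.88 (adjusted p = 0.0139). The latter was 1.26 without metastasizing replicate a at 3% oxygen and 0.50 without replicate b.

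PLAT encodes tPA and lies on chromosome 8 (chr8:42032236-42065227, minus strand, ENSG00000104368). PLAT-201 held 76.4% to 95.4% of its TPM, and the shorter PLAT-209 held 0% to 19.1%, with large differences between plates of a group such as 0% and 19.1% in the metastasizing libraries at atmospheric oxygen. In primary cells PLAT was 84.6 and 91.1 TPM at atmospheric and 477 and 395 TPM at 3% oxygen, its highest level in the series. In immortalized cells it was 205 and 182 TPM against 308 and 284 TPM. In transformed cells it was 54 and 51.4 TPM against 72.2 and 87.5 TPM, and in the metastasizing stage 46.2 and 48.9 TPM against 63.9 and 177 TPM. The hypoxic libraries lay above the atmospheric ones in all 4 stages, but by very different distances.

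Of these differences the one in primary cells passed, at a log2 fold change of 2.30 ± 0.33 (adjusted p = 0.000804, limma). The others were 0.62 ± 0.33 in immortalized cells (adjusted p = 0.196), 0.59 ± 0.33 in transformed cells (adjusted p = 0.194) and 1.16 ± 0.33 in the metastasizing stage (adjusted p = 0.0245). The value in the metastasizing stage was decided by single libraries, since it was 1.89 without replicate a at 3% oxygen (adjusted p = 1.88e-05) and 0.42 without replicate b. PLAT fell on transformation by 1.86 at atmospheric (adjusted p = 0.000669) and by 1.89 at 3% oxygen (adjusted p = 0.00095). On immortalization it differed by 1.13 at atmospheric oxygen (adjusted p = 0.0212) and by -0.55 at 3% oxygen (adjusted p = 0.241), and neither passed. The former passed in 3 alternatives, with an adjusted p from 3.9e-05 to 0.0561 over all of them. Between the transformed and metastasizing stages the differences were -0.15 and 0.42, the latter 1.15 without metastasizing replicate a at 3% oxygen (adjusted p = 0.000413) and -0.31 without replicate b.

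PLAUR encodes the urokinase receptor, which is held on the outer membrane by a glycosylphosphatidylinositol (GPI) anchor, and lies on chromosome 19 (chr19:44150247-44174699, minus strand, ENSG00000011422). Among 16 transcripts listed, PLAUR-203 held a median of 67.5% of its TPM and PLAUR-202 a median of 19.6%. They differ in exon 7, the last exon of both, from which the end of the protein is read. The coding parts of these exons are printed because the receptor form depends on them, PLAUR-203 encoding the anchored receptor and PLAUR-202 a form without the anchor. They were read from GRCh37 in the sense of the gene with GENCODE 44 exons, at chr19:44150609-44150700 for PLAUR-202 (92 bases) and chr19:44153042-44153295 for PLAUR-203 (254 bases), and capitals mark the stop codon.
PLAUR-202: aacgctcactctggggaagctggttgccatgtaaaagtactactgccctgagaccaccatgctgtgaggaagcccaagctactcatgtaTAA
PLAUR-203: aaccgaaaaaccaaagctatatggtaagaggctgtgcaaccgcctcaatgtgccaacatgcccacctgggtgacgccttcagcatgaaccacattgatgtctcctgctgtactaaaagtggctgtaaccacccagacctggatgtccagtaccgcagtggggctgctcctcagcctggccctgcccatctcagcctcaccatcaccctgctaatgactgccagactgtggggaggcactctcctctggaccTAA

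The share of PLAUR-203 ranged from 61.2% to 80.6% and that of PLAUR-202 from 11.2% to 23.2%. Both extremes towards PLAUR-203 belonged to metastasizing replicate a at 3% oxygen, with 80.6% and 11.2%, where replicate b had 71.6% and 18.2%. In the same stage at atmospheric oxygen PLAUR-203 held 61.2% and 64.5%, and PLAUR-202 22.7% and 22%. In primary cells the shares of PLAUR-202 were 20.1% and 20.2% at atmospheric and 18.5% and 19% at 3% oxygen. Those of PLAUR-203 were 63.2% and 69% against 70.1% and 71.6%. In immortalized cells PLAUR-203 held 72.5% and 66.6% at atmospheric against 65.8% and 66.7% at 3% oxygen. In transformed cells, where PLAUR did not rise, PLAUR-203 held 65.6% and 63.9% against 68.4% and 72.3%. PLAUR-202 held 22.3% and 18.8% there at atmospheric against 17.2% and 15.6% at 3% oxygen. The share of PLAUR-203 thus did not move with the level of PLAUR in every stage. These shares are estimates of the authors' quantification and were not tested.

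**Figure D3:**
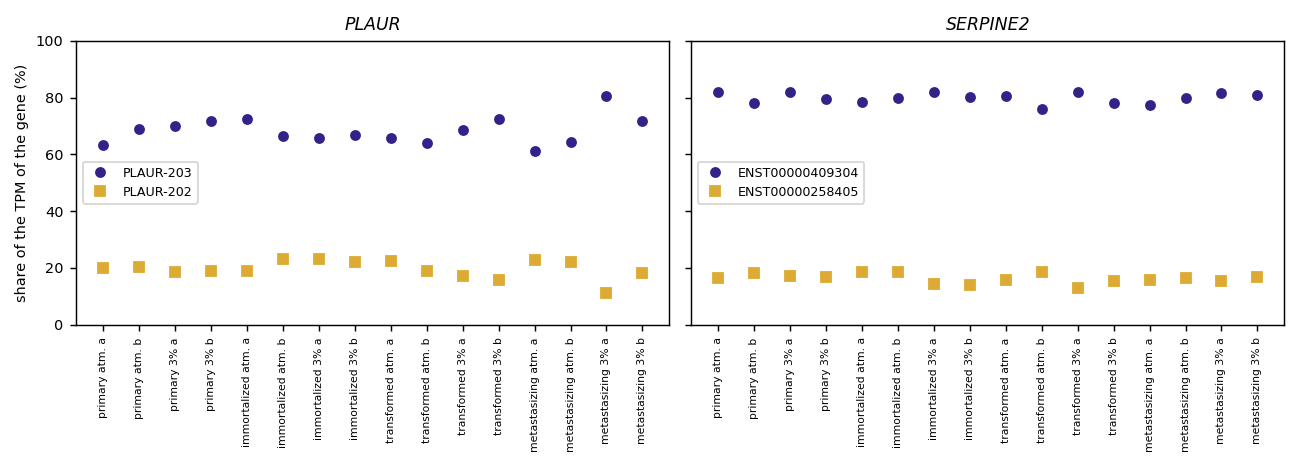
Share of the TPM of PLAUR (left) and SERPINE2 (right) held by 2 transcripts of each in every library, in percent, with libraries on the x axis. PLAUR-203 reaches 80.6% in metastasizing replicate a at 3% oxygen and at most 72.5% elsewhere, while ENST00000409304 of SERPINE2 stays between 76.1% and 82%.

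PLAUR had the narrowest range of the 5 genes. In primary cells it was 87.9 and 88 TPM at atmospheric and 241 and 203 TPM at 3% oxygen. In immortalized cells it was 133 and 137 TPM against 179 and 167 TPM, and in transformed cells 91.7 and 100 TPM against 75.8 and 93.2 TPM. In the metastasizing stage it was 134 and 113 TPM against 276 and 218 TPM. The oxygen levels did not overlap in 3 stages and overlapped in transformed cells. The log2 fold changes were 1.33 ± 0.14 in primary cells (adjusted p = 0.000127, limma), 0.35 in immortalized cells (adjusted p = 0.0846) and -0.19 in transformed cells (adjusted p = 0.325). In the metastasizing stage the value of 0.99 ± 0.14 had an adjusted p of 0.000604 and missed only the limit on size. It passed after median-ratio rescaling (1.11), after quantile normalization (1.04), without atmospheric replicate a (1.11) and without replicate b at 3% oxygen (1.16), and was 0.82 without replicate a.

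Between stages, the changes of PLAUR that passed were at 3% oxygen. It fell on transformation by 1.03 ± 0.14 (adjusted p = 0.000167, limma) and rose from the transformed to the metastasizing stage by 1.54 ± 0.14 (adjusted p = 5.23e-05). The fall was just under the limit on size without immortalized replicate a (-0.98) or transformed replicate a (-0.89) at 3% oxygen. The rise was not called with only the 2 groups compared (adjusted p = 0.0753, from 4.99e-05 over its alternatives), and was 1.37 without metastasizing replicate a and 1.71 without replicate b. At atmospheric oxygen the 3 steps were 0.61 (adjusted p = 0.00567), -0.49 (adjusted p = 0.0113) and 0.36 (adjusted p = 0.0956). The step on immortalization at 3% oxygen was -0.36 (adjusted p = 0.0795).

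SERPINE2 encodes protease nexin-1, a serpin bound to matrix and cell surface that inhibits thrombin, uPA, tPA and plasmin, and lies on chromosome 2 (chr2:224839762-224904035, minus strand, ENSG00000135919). Transcript ENST00000409304 held 76.1% to 82% of its TPM and ENST00000258405 held 13.1% to 18.7%, with little difference between groups. They differ by 3 bases at the start of exon 7, where ENST00000258405 (exon at chr2:224845028-224845117) begins ahead of ENST00000409304 (exon at chr2:224845028-224845114). The junction is printed because nearly all SERPINE2 expression is divided between these forms. Each line gives the last 20 bases of the exon before and the start of exon 7 in the sense of the gene (GRCh37, GENCODE 44), with the extra bases in capitals.
ENST00000258405: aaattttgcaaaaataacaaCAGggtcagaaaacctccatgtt
ENST00000409304: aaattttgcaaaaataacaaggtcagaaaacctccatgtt

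At atmospheric oxygen SERPINE2 was 755 and 584 TPM in primary and 765 and 608 TPM in immortalized cells. It was 113 and 110 TPM in transformed and 110 and 114 TPM in metastasizing cells. On transformation it fell by 2.61 ± 0.38 on the log2 scale and passed (adjusted p = 0.000169, limma), while the steps on either side of it were 0.04 and 0.01. At 3% oxygen the values were 595 and 536 TPM in primary, 272 and 272 in immortalized, 253 and 397 in transformed, and 249 and 83.3 in metastasizing cells. No step at that oxygen level passed, with differences of -1.05 (adjusted p = 0.0603), 0.22 (adjusted p = 0.668) and -1.14 (adjusted p = 0.0474). The last depended on single libraries, at -1.92 without metastasizing replicate a and -0.35 without replicate b. The first passed in 3 alternatives (limma, adjusted p from 0.00146 to 0.134).

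The oxygen difference of SERPINE2 pointed to opposite sides in neighbouring stages. Both hypoxic libraries were below both atmospheric ones in immortalized cells, a log2 fold change of -1.33 ± 0.38 (adjusted p = 0.0266, limma), and above them in transformed cells, 1.51 ± 0.38 (adjusted p = 0.0115). Neither passed, and each passed in 3 alternatives, with adjusted p from 0.000296 to 0.0724 and from 0.000243 to 0.0363. Among these is the fit without the metastasizing group at 3% oxygen, whose replicates enter the shared estimate of the spread with values 2.99-fold apart for this gene. In primary cells the difference was -0.23 (adjusted p = 0.687). In the metastasizing stage it was 0.36 (adjusted p = 0.503), and -0.42 or 1.15 without replicate a or b at 3% oxygen.

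SERPINB2 encodes plasminogen activator inhibitor type 2 (PAI-2), a serpin that inhibits uPA and in part stays inside the cell, and lies on chromosome 18 (chr18:61538926-61571122, plus strand, ENSG00000197632). Its main transcript held 93.8% to 100% of its TPM, and an overlapping gene without a symbol, ENSG00000289724, reached at most 0.87 TPM. At atmospheric oxygen SERPINB2 was 37.5 and 41 TPM in primary and 158 and 117 TPM in immortalized cells. It was 5.39 and 5.14 TPM in transformed and 11.3 and 13 TPM in metastasizing cells. At 3% oxygen it was 148 and 104 TPM in primary, 81.4 and 77.7 in immortalized, 18.1 and 86.9 in transformed, and 269 and 71.6 in metastasizing cells. The oxygen levels did not overlap in any stage, with 3% oxygen below in immortalized cells and above in the others. The replicates at 3% oxygen differed 4.81-fold in transformed and 3.76-fold in metastasizing cells, so the size of both differences is poorly known.

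The log2 fold changes of SERPINB2 between oxygen levels were 1.65 ± 0.65 in primary cells (adjusted p = 0.0818, limma) and -0.77 ± 0.65 in immortalized cells (adjusted p = 0.408). They were 2.80 ± 0.65 in transformed cells (adjusted p = 0.00696) and 3.47 ± 0.65 in the metastasizing stage (adjusted p = 0.00292), and both passed. The call in transformed cells was lost without either atmospheric library (2.83 without a, 2.77 without b) and without replicate b at 3% oxygen (1.69), and over the other alternatives its adjusted p ran from 0.000875 to 0.0397. The call in the metastasizing stage was lost without either atmospheric library (3.37 and 3.57) and without replicate a at 3% oxygen (2.52, against 4.42 without replicate b), and its adjusted p ran from 0.00274 to 0.0366. Between stages SERPINB2 fell on transformation at atmospheric oxygen by 4.56 ± 0.65 (adjusted p = 0.000129), the largest stage difference among the members. The same step at 3% oxygen was -0.99 (adjusted p = 0.235) and the step into the metastasizing stage at 3% oxygen 1.79 (adjusted p = 0.0608). Without single libraries the latter ranged from 0.68 to 2.91, with 2.91 without transformed replicate b and 2.74 without metastasizing replicate b.

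Of the 3 steps of the model, the introduction of SV40 Large-T was the one at which most members were called. The same held for all genes. At atmospheric oxygen 3016 of 12387 were called at this step, against 1517 of 12388 on immortalization and 503 of 12203 at the last step. At 3% oxygen these counts were 2026 of 12396, 1128 of 12218 and 727 of 12288. At atmospheric oxygen PLAU, PLAT, SERPINE2 and SERPINB2 fell, so 4 of 5 were called lower where 11.2% of 12387 genes were. The median difference was -2.61 over the members and 0.22 over all genes. PLAUR was the exception, at -0.49. All genes at this step split into 1632 higher and 1384 lower, and into 1066 and 1776 after median-ratio rescaling, which moved the median of all genes to -0.01. At 3% oxygen PLAU, PLAT and PLAUR were called lower, 3 of 5 against 7.38% of 12396 genes, with medians of -1.03 and 0.11. Of the 9 fibroblast markers, 6 were called lower at this step at atmospheric oxygen (COL1A2, DCN, FAP, LUM, PDGFRB and THY1) and 5 at 3% oxygen (COL1A1, COL1A2, DCN, LUM and THY1), and none was called higher. At atmospheric oxygen the others were -0.06 for COL1A1, -0.82 for COL3A1 and 0.36 for VIM. The part of these markers in the members' fall was not tested.

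On immortalization PLAU alone was called, in the direction of higher expression, at both oxygen levels. The background was 5.98% of 12388 genes at atmospheric and 4.19% of 12218 genes at 3% oxygen, and the median over the members was 1.13 and -0.55, against -0.09 and -0.06 over all genes. From the transformed to the metastasizing stage no member was called by limma at atmospheric oxygen, where 4.12% of 12203 genes were called in either direction. PLAU and PLAUR had an unadjusted p of 0.00738 and 0.0255 there. The split of all calls at this step was 293 higher and 210 lower, and 241 and 263 after quantile normalization. At 3% oxygen PLAUR alone was called higher, against 1.99% of 12288 genes (244 higher and 483 lower, or 330 and 377 after quantile normalization).

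**Figure D4:**
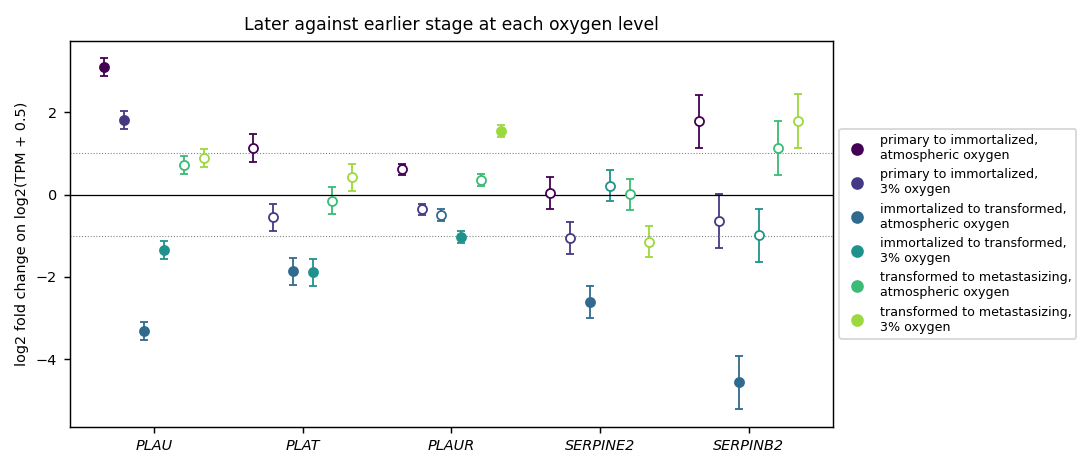
Log2 fold change of the later against the earlier stage on the log2(TPM + 0.5) scale for each gene, by step and oxygen level (colour), with standard errors from limma. Filled points passed the threshold and dotted lines mark a log2 fold change of 1 in either direction. Of the 5 genes, 4 have a filled point below the lower line for the step from immortalized to transformed cells at atmospheric oxygen, from -1.86 for PLAT to -4.56 for SERPINB2.

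Whether the oxygen response differed between neighbouring stages was tested directly. From immortalized to transformed cells the response of PLAU shifted upward by 1.96 ± 0.31 on the log2 scale (adjusted p = 0.000972, limma) and that of SERPINE2 by 2.83 ± 0.54 (adjusted p = 0.00277). These were 2 of 5 members, against 6.13% of 12715 genes called in that direction (779 higher and 743 lower, or 980 and 475 after median-ratio rescaling). For SERPINE2 the call was lost without a filter on low values (adjusted p = 0.0109, the highest over its alternatives, with a lowest of 4.36e-05). It was also lost without immortalized replicate a at atmospheric oxygen (2.67), immortalized replicate a or b at 3% oxygen (2.83 each), transformed replicate a or b at atmospheric oxygen (2.85 and 2.82) and transformed replicate b at 3% oxygen (2.51), with an adjusted p of at most 0.0135. SERPINB2 shifted by 3.57 ± 0.91 (adjusted p = 0.0125), which did not pass but did so with array weights, with the metastasizing group at 3% oxygen left out of the fit (adjusted p from 0.000803 to 0.0384 over its alternatives) and without transformed replicate a at 3% oxygen (4.69, adjusted p = 0.00142).

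From transformed to metastasizing cells the response of PLAUR shifted upward by 1.18 ± 0.20 (adjusted p = 0.00193, limma), 1 of 5 members against 2.84% of 12590 genes (358 higher and 708 lower, or 458 and 580 after median-ratio rescaling). The call was lost with only the groups compared (adjusted p = 0.0263, the highest over its alternatives, with a lowest of 0.00177). It was lost as well without transformed replicate b (1.11) or metastasizing replicate b (1.06) at atmospheric oxygen. The values of PLAT and SERPINE2, neither of which passed, depended on which metastasizing replicate at 3% oxygen was kept. PLAT (0.57) was 1.30 without replicate a and -0.17 without replicate b. SERPINE2 (-1.14) was -1.93 without replicate a and -0.36 without replicate b. From primary to immortalized cells no member passed by limma, where 1.86% of 12632 genes were called in either direction, although 4 had an unadjusted p under 0.05. The shifts were -0.97 ± 0.20 for PLAUR (adjusted p = 0.0146), -1.29 ± 0.31 for PLAU (adjusted p = 0.03), -1.68 ± 0.47 for PLAT (adjusted p = 0.0541) and -2.42 ± 0.91 for SERPINB2 (adjusted p = 0.146). All 4 were negative, the oxygen difference in immortalized cells being smaller for PLAUR and PLAT and of opposite sign for PLAU and SERPINB2. Over the alternatives the adjusted p ran from 0.000261 to 0.117 for PLAT, which passed in 3, from 0.00187 to 0.0675 for PLAU, which passed in 2, and from 0.00422 to 0.265 for SERPINB2, which passed in 1.

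The balance of the activators changed along the model. In primary cells PLAT exceeded PLAU 2 and 2.24 times at atmospheric oxygen and 5.32 and 5.78 times at 3% oxygen. In immortalized cells the ratio was 0.519 and 0.56 at atmospheric and 1.1 and 1.05 at 3% oxygen. PLAU was therefore the more abundant activator message after immortalization at atmospheric oxygen, and the activators were nearly equal at 3% oxygen. In transformed cells the ratio went the other way with oxygen, from 1.52 and 1.44 to 0.773 and 0.705, and in metastasizing cells it stayed below 1 in all 4 libraries, at 0.767 and 0.845 against 0.419 and 0.687. The ratio was thus higher at 3% oxygen in both early stages and lower in both later stages, without overlap between oxygen levels within any stage.

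The balance of the inhibitors moved in 1 direction with oxygen. The ratio of SERPINE2 to SERPINB2 was 20.2 and 14.3 in primary cells at atmospheric oxygen and 4.02 and 5.13 at 3% oxygen. It was 4.85 and 5.19 against 3.34 and 3.5 in immortalized cells, and 20.9 and 21.4 against 14 and 4.58 in transformed cells. In metastasizing cells it was 9.78 and 8.77 against 0.923 and 1.16. Hypoxic libraries had the lower ratio in every stage without overlap. SERPINE2 and SERPINB2 came out nearly equal in metastasizing cells at 3% oxygen even though the replicates differed several-fold in each gene. Other inhibitors of the pathway do not enter this ratio. Ratios were not tested.

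**Figure D5:**
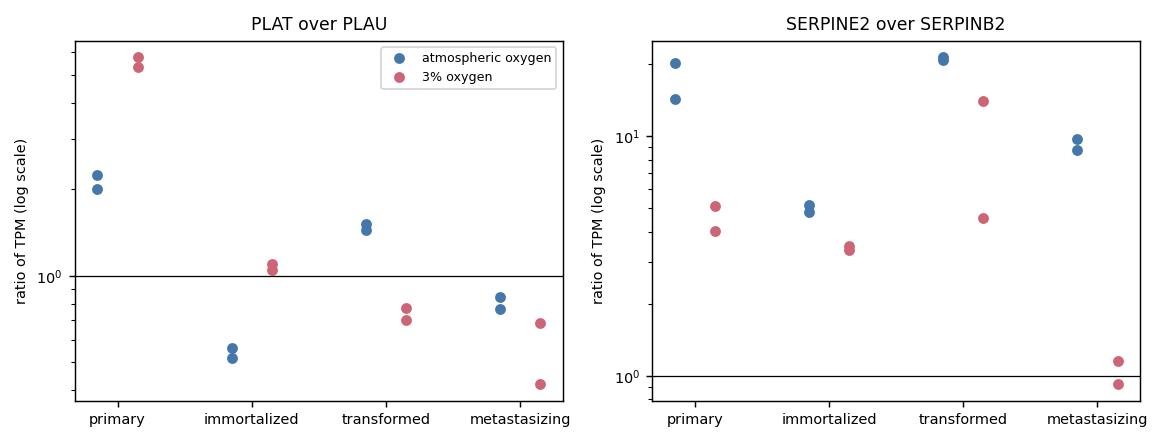
Ratio of PLAT to PLAU (left) and of SERPINE2 to SERPINB2 (right) in TPM on a log scale for each library, by stage, at atmospheric (blue) and 3% oxygen (red), with a line at a ratio of 1. The left ratio is above 5 in both primary libraries at 3% oxygen, and the right ratio is near 1 in both metastasizing libraries at 3% oxygen (0.923 and 1.16).

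The receptor and its ligand did not keep a fixed proportion. PLAU was 0.482 and 0.462 of PLAUR in primary cells at atmospheric oxygen and 0.372 and 0.336 at 3% oxygen. In immortalized cells it was 2.98 and 2.36 times PLAUR at atmospheric and 1.56 and 1.63 times at 3% oxygen. In transformed cells the ratio was 0.386 and 0.357 against 1.23 and 1.33, and in metastasizing cells 0.449 and 0.51 against 0.553 and 1.18. Ligand message exceeded receptor message in both immortalized groups, in transformed cells at 3% oxygen, and in replicate b but not a of metastasizing cells at 3% oxygen.

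Upstream sequence was searched for the core of the hypoxia-inducible factor element (ACGTG or GCGTG) and for the AP-1 site (TGANTCA, where N is any base), on both strands, in the 250 bases before the start of the main transcript in GRCh37. AP-1 is a pair of Fos and Jun proteins known to act on PLAU and PLAUR, and the 2 strands of ACGTG overlap where the letters CACGTG occur. Of 4 genes examined (PLAT was not), PLAU and PLAUR held 1 hypoxia core each, PLAUR and SERPINB2 1 AP-1 site each, and SERPINE2 neither. Among 18921 windows of protein-coding genes, 51.7% held a hypoxia core and 4.71% an AP-1 site, so the former is common at this window length. The matches are printed in the sense of each gene with 10 bases on either side and the motif in capitals. They lie at chr10:75670767-75670791 (PLAU, position -113 from the start), chr19:44174491-44174517 and chr19:44174393-44174417 (PLAUR, positions -186 and -86, both within an exon of a longer transcript) and chr18:61554827-61554853 (SERPINB2, position -102). A match describes these letters and not a bound site.
PLAU hypoxia core: gttgcggaagCACGCggggtccggg
PLAUR AP-1: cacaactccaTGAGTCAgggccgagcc
PLAUR hypoxia core: gggaggcgccCACGCatctggggct
SERPINB2 AP-1: agtaaaatgtTGAATCActcaaaggac

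The wider pathway was read from 33 genes. They are plasminogen and the contact-system proteases, inhibitors, plasminogen and tPA binding proteins, clearance and collagen uptake receptors, and partners of the urokinase receptor. Plasminogen itself (PLG) and the contact-system proteases KLKB1, F12 and F11 stayed under 1 TPM in every group, as did 5 others, leaving 24 genes that reached 1 TPM in a group. In primary cells at 3% oxygen 2 of 22 genes tested were called higher and none lower, and the median over them was 0.30. In immortalized cells 0 of 23 were called. In transformed cells 2 of 22 were higher and none lower (median 0.38), and in metastasizing cells 2 of 23 were higher and 2 lower (median 0.09). The backgrounds are those given for the members, and a count of 0 in immortalized cells stands against 4.91% of all genes. At the introduction of SV40 Large-T at atmospheric oxygen, 1 of 23 pathway genes was called higher and 6 lower, with a median of -0.44, against 13.2% and 11.2% of all genes.

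Of the inhibitors among the pathway genes, TFPI2, a Kunitz-type inhibitor of plasmin, was called in 2 stages between oxygen levels. It rose in primary cells from 8.6 and 12 TPM to 116 and 75.5 TPM (log2 fold change 3.14, adjusted p = 0.00016, limma) and in metastasizing cells from 12.6 and 11.3 TPM to 31.6 and 38.4 TPM (1.51, adjusted p = 0.00861). The latter was not called in 5 of its alternatives (adjusted p from 0.00557 to 0.0808), nor without atmospheric replicate a (1.59) or b (1.44) or replicate a (1.65) or b (1.37) at 3% oxygen. In immortalized cells the TFPI2 difference was -0.97 (adjusted p = 0.0609), and its response differed from that of primary cells by -4.11 (adjusted p = 0.000957), the only one called there among the 23 pathway genes tested. SERPINB8, an intracellular serpin, rose in metastasizing cells from 50.9 and 50.3 TPM to 171 and 98.7 TPM (1.35, adjusted p = 0.00108). That call of SERPINB8 was lost without atmospheric replicate a (1.36) or b (1.34), without replicate a at 3% oxygen (0.96) and with only the groups compared (adjusted p = 0.0581, from 0.00102 over its alternatives). SERPING1, the C1 inhibitor, which also blocks kallikrein and factor XII, fell in metastasizing cells from 37.9 and 37 TPM to 11.7 and 16.8 TPM (-1.39, adjusted p = 0.000285), and was not called with only the groups compared (adjusted p = 0.0403, from 0.000267). In transformed cells it was 20.9 and 21.8 TPM against 32.7 and 42 TPM, a difference of 0.78 that did not reach the limit on size.

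Among the binding proteins, S100A10, which presents plasminogen at the cell surface in a complex with annexin A2, rose in primary cells from 333 and 357 TPM to 703 and 716 TPM (1.04, adjusted p = 0.00026, limma). Its size fell short of the limit after median-ratio rescaling (0.92), after quantile normalization (0.89) and without atmospheric replicate a (0.99). In the other stages its differences were 0.15, 0.41 and 0.49. VLDLR, a receptor that takes up protease and inhibitor complexes, rose in transformed cells from 4.75 and 5.01 TPM to 41.2 and 27.9 TPM (2.68, adjusted p = 1.21e-05). ITGB3, the integrin beta-3 chain of a vitronectin receptor, rose in the same stage from 11 and 9.29 TPM to 30.8 and 29.3 TPM (1.53, adjusted p = 0.00334). The call of ITGB3 was lost without a filter on low values (adjusted p = 0.0111, from 1.8e-05 over its alternatives) and without transformed replicate a (1.64) or b (1.41) at atmospheric oxygen or replicate a (1.49) or b (1.56) at 3% oxygen. SRPX2, a ligand of the urokinase receptor, fell in metastasizing cells from 49.8 and 50.2 TPM to 12.4 and 11.7 TPM (-2.01, adjusted p = 3.2e-06).

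Likeness of expression was described with Pearson's r on the log2 scale over the 16 libraries among 9946 protein-coding genes that averaged 5 TPM or more. Libraries of a group and groups of a stage are not independent, so no p is given. PLAU was most like TMEM158 (0.97), DUSP5 (0.95) and LRRC17 (0.93), PLAT most like SLC9A7 (0.96), GRAMD1B (0.95) and MYO10 (0.94), and PLAUR most like SEMA7A (0.94), ITPRIP (0.88) and GSPT1 (0.88). SERPINE2 was most like ANXA5 (0.97), AMIGO2 (0.94) and CUX1 (0.93), and SERPINB2 most like IL4R (0.93), CD55 (0.88) and TNFAIP3 (0.87). No member was among the 3 genes most like another. Between members r ran from 0.00 for PLAUR with SERPINE2 to 0.70 for PLAU with SERPINB2. SERPINB2 was the member whose r with each of the others was at least 0.63. Many other genes were more alike than the members. In the order of the 9946 genes by r, members took places from 114 (SERPINB2 for PLAUR) to 4819 (SERPINE2 for PLAUR). With an r of 0.70 SERPINB2 took place 263 for PLAU.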

How the data were processed

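RNA of 16 libraries was sequenced by the authors with a stranded poly-A protocol, and transcripts were quantified with kallisto 0.42.1 against GRCh37, per the labels. The deposited values are TPM for each of 180253 transcripts, scaled by the authors to a sum of 1000000 per library. They hold no counts, so the authors' edgeR test of estimated counts was not repeated and depth is unknown. Whether strand was used in quantification is not given in the sources used here. After 1 stray header line was skipped, 151453 transcripts were matched to GENCODE 44 lifted to GRCh37 and summed by gene, which kept 88.2% to 90.1% of each library.

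Gene sums were log-transformed as log2(TPM + 0.5) and fitted with limma 3.58.1 under R 4.3.3, in 1 model with a coefficient for each of 8 groups and an intensity trend (8 residual degrees of freedom before moderation), among protein-coding genes averaging 1 TPM or more in a group compared. Adjustment was by Benjamini-Hochberg over all genes of a comparison, and the fitting step had first been tested on simulated data. With 2 libraries per group the smallest two-sided p of an exact permutation test is 0.333, so none was used. Tables and figures were made with Python 3.11.15, pandas 2.3.3, numpy 2.4.6 and matplotlib 3.10.9.

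Named genes are the members, every pathway gene called between oxygen levels in a stage, the 3 genes most like each member, HRAS and the cell type markers. A gene of the pathway lists is counted but not reported here. The members and lists were chosen with earlier results of these data known. Alternatives were a pseudocount of 1 or 0.1, no filter or a filter of 5 TPM, median-ratio rescaling, quantile normalization, only the groups compared, a replicate block, no intensity trend, array weights, all annotated genes, protein-coding transcripts only, and each library left out in turn. Leaving the metastasizing group at 3% oxygen out of the fit was added after seeing the data.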

Additional observations from a re-analysis of the deposited data

Results flagged for a closer look

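Differences of the oxygen response between neighbouring stages passed an interaction test (limma, Benjamini-Hochberg) for 3 members. For PLAU the log2 fold change at 3% against atmospheric oxygen was 1.96 higher in transformed than in immortalized cells (-0.38 to 1.58, adjusted p = 0.000972). It passed in every alternative and without each library in turn, with a value of 1.76 to 2.17. For SERPINE2 the same difference was 2.83 (-1.33 to 1.51, adjusted p = 0.00277), which did not pass without a filter on low values or when any of 6 of the 8 libraries compared was left out. For PLAUR the response was 1.18 higher in metastasizing than in transformed cells (-0.19 to 0.99, adjusted p = 0.00193), which did not pass with only the groups compared or without replicate b of either stage at atmospheric oxygen. In all 3 cases at least one of the oxygen differences that were compared had itself not passed.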

How the results depend on the processing

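Leaving out a library, 275 of 320 values of the members (log2 fold changes and differences of responses) kept their direction and side of the threshold, 28 crossed the threshold in the same direction (16 lost, 12 gained) and 17 reversed. The lone library of a group was then assumed to vary like the other groups. Under the other alternatives 726 of 765 were kept, 10 were lost, 25 gained and 4 reversed. Counting only protein-coding transcripts moved 4 of 40 group means beyond their replicate SD, with a largest fall of 5.23%. TPM hold no depth, so the precision of low values such as SERPINB2 in transformed cells is unknown, and 2 plates per group leave the spread of each gene to be estimated mostly from other groups.

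The number of members called changed with the following alternatives. Except for the 2 rescalings, the share of all genes called under the same alternative is not given. Those counts therefore cannot be read as particular to the members. With only the groups compared the count between oxygen levels was 1 for immortalized (0 in the report), 1 for transformed (2) and 0 for metastasizing cells (2). At atmospheric oxygen it was 3 on immortalization (1) and 1 from the transformed to the metastasizing stage (0), and at 3% oxygen 2 (1) and 0 (1). For differences of the response it was 2 between primary and immortalized cells (0) and 0 between transformed and metastasizing cells (1), each resting on fewer libraries. With array weights, which gave both metastasizing libraries at 3% oxygen a weight of 0.241, it was 1 in immortalized and 1 in metastasizing cells between oxygen levels, 3 and 2 on immortalization at atmospheric and 3% oxygen, and 2 for the response between primary and immortalized cells. Leaving that group out of the fit gave 1, 2, 2 and 2 for immortalized cells between oxygen levels, immortalization at both oxygen levels and that response. Both of these alternatives also gave 3 instead of 2 in transformed cells between oxygen levels (SERPINE2 gained) and for the response between immortalized and transformed cells (SERPINB2 gained). Quantile normalization gave 3 in transformed (SERPINE2 gained) and, as did median-ratio rescaling, 3 in metastasizing cells (PLAUR gained) between oxygen levels. Over all genes, quantile normalization called 928 of 12242 in transformed cells, against 916 of 12242 in the report. For metastasizing cells it called 912 of 12288 and median-ratio rescaling 902 of 12233, against 941 of 12288. Without a filter on low values it was 1 in transformed and in metastasizing cells between oxygen levels and 1 for the response between immortalized and transformed cells. Without single libraries it ranged from 1 to 2 in transformed and from 1 to 4 in metastasizing cells between oxygen levels, from 1 to 4 for the step into the metastasizing stage and from 2 to 3 (3 in the report, PLAUR lost) for the step into the transformed stage at 3% oxygen, and from 1 to 3 and 0 to 3 for the responses into the transformed and the metastasizing stage. Beyond the number of libraries or genes that an alternative changes, the cause was not tested.

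Directions reversed only in differences that had not passed. These were SERPINE2 from transformed to metastasizing cells at atmospheric oxygen (0.01, and -0.05 and -0.06 after median-ratio rescaling and quantile normalization) and the PLAT response between immortalized and transformed cells (-0.03, and 0.13 and 0.08). Without single libraries these ranged from -0.02 to 0.03 and from -0.16 to 0.11. Other ranges that crossed 0 were -0.15 to 0.22 for SERPINE2 on immortalization at atmospheric oxygen, -0.10 to 0.55 for SERPINE2 and -2.11 to 0.13 for SERPINB2 on transformation at 3% oxygen, -0.31 to 1.15 for PLAT from transformed to metastasizing cells at 3% oxygen, and -0.42 to 1.15 for SERPINE2 between oxygen levels in metastasizing cells. For the response between transformed and metastasizing cells they were -0.22 to 0.53 for PLAU, -0.17 to 1.30 for PLAT and -0.45 to 1.78 for SERPINB2. The SERPINE2 and PLAT ranges in metastasizing cells at 3% oxygen have their ends at the fits without replicate a and without replicate b.

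Replicate letters are shared by all groups. Within a stage, same-letter libraries at different oxygen levels did not deviate together from their group means, so no pairing was assumed. Across 13146 genes r was -0.15, -0.0998, -0.0773 and -0.0973 for the 4 oxygen comparisons. These values cannot show whether libraries of a letter share anything across stages. With the replicate block 1 member was called between oxygen levels in transformed cells instead of 2, SERPINB2 having an adjusted p of 0.0108 (limma), and no other call of a member changed. Of the pathway genes named, TFPI2 in metastasizing cells was not called with the block (adjusted p = 0.0127).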
